A study of Rattus norvegicus with 59 samples.

Results

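Potassium channel genes were read on a rat expression array in 5 brain regions of a pair of inbred lines. The members were all probe sets whose single gene symbol in the array annotation starts with Kcn. A probe set is a group of short probes against 1 transcript. The rule found 82 probe sets of 54 genes among 8740 probe sets that are not controls, and 7006 of those carry a single symbol. The rule used names, not measured values. The rats were 12 adult males from a pair of inbred strains, the alcohol-preferring iP (6 rats) and the non-preferring iNP (6 rats). Both strains were housed in pairs on rat chow and water, were handled daily before decapitation, and have no alcohol or drug exposure named in the labels. Cortex, striatum, hippocampus, amygdala and nucleus accumbens were dissected from each rat, and each region's total RNA was labelled with biotin and hybridised on an array of its own. Every group held 6 arrays except iP cortex, which held 5: the cortex array of animal 6 is not analysed here. As a model, each line stands for 1 inbred genotype, so a line difference is one between 2 genotypes.

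Potassium channels let potassium leave or enter the cell along its gradient, which sets the resting potential, ends action potentials and shapes firing. Voltage-gated channels are built from pore-forming alpha subunits, and silent alpha-like subunits and cytoplasmic beta subunits alter what the pore formers do. Inward rectifiers and two-pore channels act near rest, and further pores open on internal calcium or sodium. By role the 82 probe sets fell into 22 of the pore-forming families Kcna to Kcnd (12 genes), 13 of modifying subunits (10 genes), 14 of the Kcnh and Kcnq families (10 genes), 22 of the inward rectifiers Kcnj (15 genes), 4 of the two-pore channels Kcnk (3 genes) and 7 of the calcium- or sodium-activated channels (4 genes).

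The deposited signals are linear intensities, scaled so that the trimmed mean of every array is 1000. The 59 arrays had median signals of 254 to 393. By correlation over 5200 probe sets that are no members, 53 arrays were most like the arrays of their own region and 6 were most like another region. Of these, 2 stood apart. The cortex array from iP animal 5 was most like amygdala, but weakly (median r 0.06, against -0.13 with the other 10 cortex arrays). Its Gapdh probe sets, a measure of RNA integrity, differed by 6.14 (log2) between the 3′ and 5′ ends, against at most 0.44 elsewhere. The amygdala array from iP animal 1 was most like cortex (median r 0.19, against -0.15 with the other 11 amygdala arrays). Both were kept, and the counts of calls without them are given beside the main ones. The other 4 were striatum of iP animal 5 (most like cortex), amygdala of iNP animals 7 and 8 (accumbens) and accumbens of iP animal 4 (amygdala). Marker genes bore out the striatal dissections more clearly than the others. All 6 tested markers of medium spiny neurons, the main cell type of striatum and accumbens, were higher in striatum (median log2 difference 2.03) and in accumbens (2.03), and all 6 were lower in cortex and in hippocampus. Of 4 tested hippocampal markers 2 were higher and 1 lower in hippocampus. Of 5 tested amygdala markers 2 were higher and 2 lower in amygdala (median -0.16), and 3 were higher and none lower in cortex (median 0.47). The line rests on titles and genotype labels, which give the same line on all 59 arrays; the source name gives iNP throughout, also on the 29 iP arrays.

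Potassium channel probe sets lay near the signal floor of 16 about as often as all probe sets did. The floor is the value below which signals were set to 16 before the log2 step. Near the floor was taken as a median signal under 32. By region, 8.54% to 11.0% of members were near it, against 10.6% to 11.5% of all probe sets. Of the 82 probe sets, 7 were near it in all 5 regions and 9 in at least 1. The 7 were probe sets of Kcnj2, Kcnj6, Kcnq1, Kcnn3, Kcne1, Kcnk3 and Kcna2. Kcnj2, an inward rectifier, had the lowest signals: its median over all arrays was 10.5, it was at or under 16 on 43 of 59 arrays, and it was the only member with a median at or under 16 in every region. Kcnq1, a slowly opening channel known from heart and ear, was at or under 16 on 42 arrays (median 13.7). Kcnn3, a calcium-activated channel, was at the floor on 25 arrays (median 16.8) and its highest signal was 123. The Kcne1 probe set (median 19.4), the Kcnk3 probe set (18.8) and the Kcna2 probe set (20.3) were at the floor on 16, 17 and 17 arrays, and Kcnj6, a channel opened by G-protein subunits, on 14 (median 22.0). Signals this low are mostly at or close to the floor, so differences between them are poorly measured.

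Taken by region and line, 6 of these 7 were near the floor in all 10 groups. Kcnn3 was near it in 9, with a median of 68.8 in iNP amygdala against 15.3 in iP amygdala. A further 2 members were near the floor in a region with both lines pooled. Kcnj13 had region medians of 17.2 in striatum and 22.3 in amygdala, and of 39.0 to 48.6 in the other 3 regions; in striatum the Kcnj13 median was 53.5 in iP and 14.4 in iNP. The second probe set of Kcna6, a delayed rectifier, had a median of 27.7 in amygdala and of 125 in striatum. Of the remaining members, 3 were near it in a single group, namely a Kcnj1 probe set in iP cortex (14.7, against 51.5 in iNP), a Kcnma1 probe set in iP accumbens (20.4, against 77.6 in iNP) and a Kcnq3 probe set in iNP accumbens (31.3). This makes 12 members near the floor in at least 1 group. None of the 12 was called between the lines in any region in the fit without the filter on low signal, so these gaps passed no test. Kcna2, Kcne1 and Kcnk3 each have a second probe set that was not near the floor (medians 70.4, 179 and 79.2). Across arrays these pairs correlated by 0.39, 0.04 and -0.02, and no probe set of these genes passed the filter, so the levels of the genes are uncertain.

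In each region and line, 7 to 9 members had a median under 32. In cortex the number was 9 of 82 for iP and 7 for iNP. Striatum had 7 and 8, hippocampus 8 and 7, amygdala 9 and 8 and accumbens 8 and 8. Across the 10 groups this is 8.54% to 11.0% of members, where 10.4% to 12.0% of all probe sets were near the floor. In all, 44 probe sets of 33 genes passed the filter on low signal, which left out the 40% of probe sets with the lowest mean, and none of the 44 had an array at the floor. The other 38, among them every probe set of 21 genes, fell below this filter and were not tested in the main comparison. Of the members 53.7% passed the filter, against 60% of all probe sets.

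**Figure D1:**
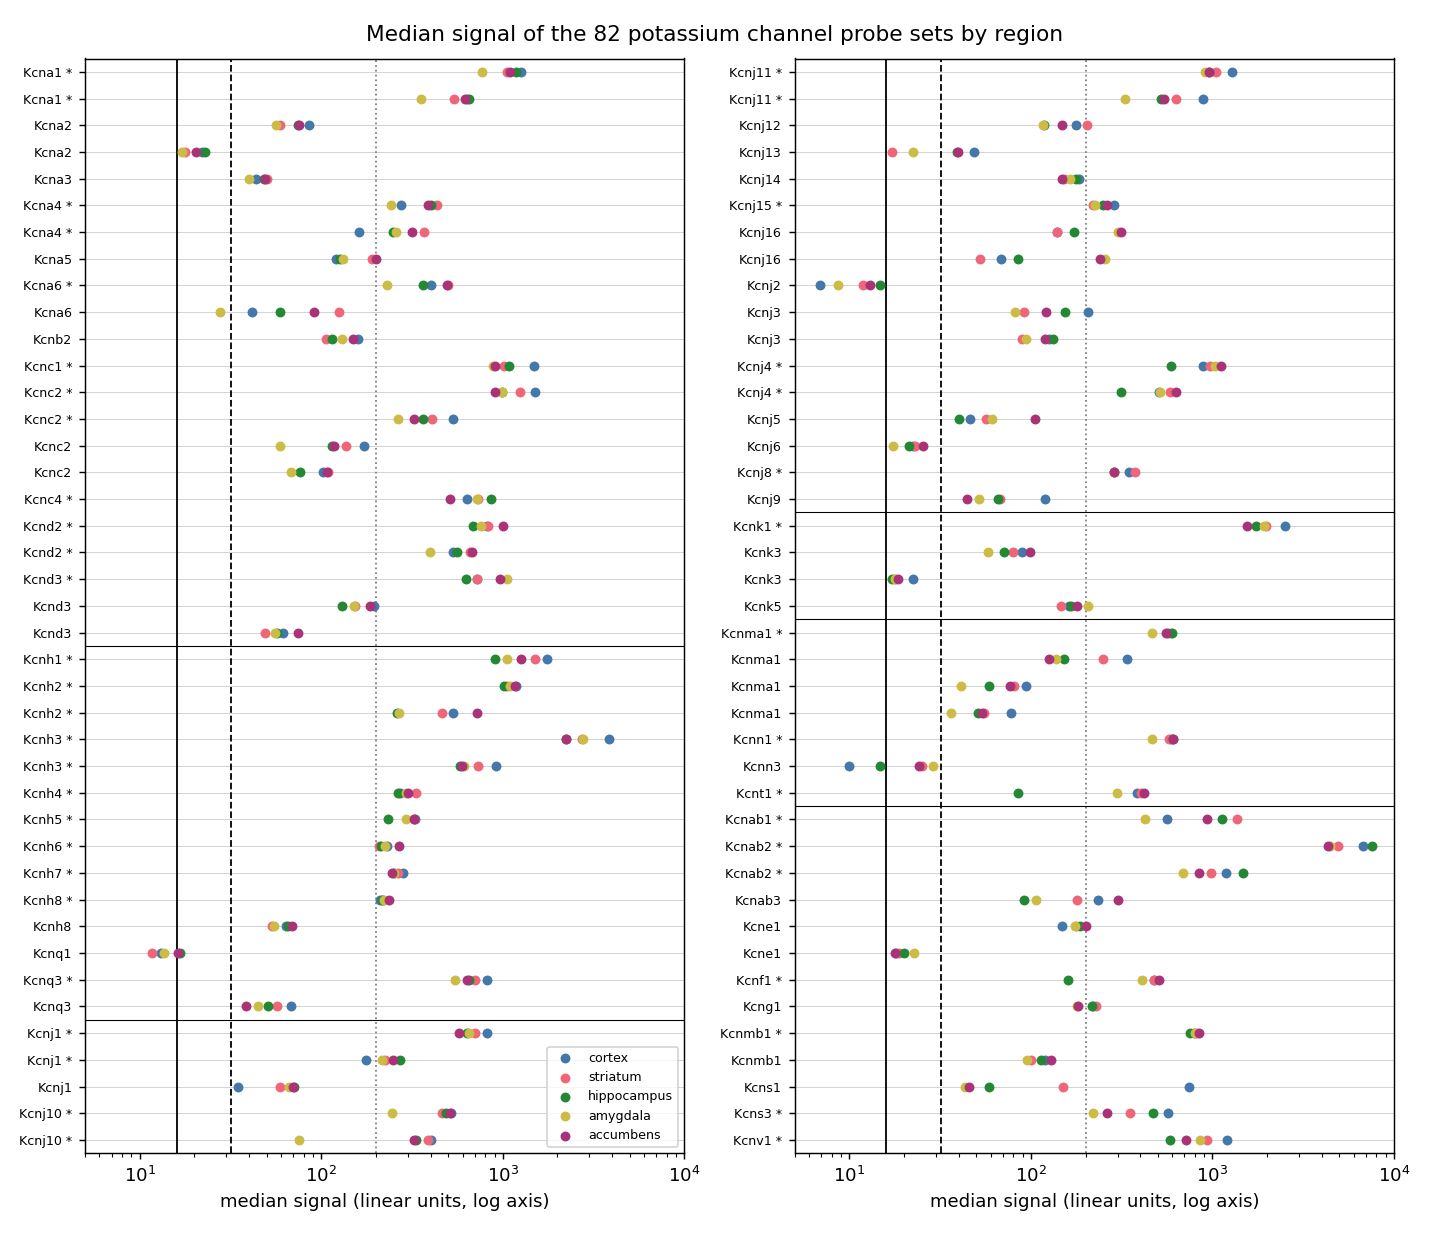
Median signal of each of the 82 probe sets in each region (log axis), ordered by role and then by gene, with the solid line at the floor of 16, the dashed line at 32 and the dotted line at the filter on the mean. Asterisks mark the 44 tested probe sets; 7 rows lie left of the dashed line in every region, and the Kcns1 row has cortex far to the right of the other 4 regions.

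More members differed between regions than between lines. For every region, its level was compared with the average over the other 4, blocking on the animal, in limma's moderated test with Benjamini-Hochberg adjustment over all 5244 tested probe sets. Of the 44 members, 29 differed between regions (65.9%, where 45.4% of all tested probe sets did). In cortex 15 members were called (12 higher and 3 lower; 17% of all tested probe sets were called, 7.86% higher and 9.19% lower). In amygdala 19 were called (3 higher and 16 lower; 26.1% of all, 13.3% higher and 12.8% lower). Most calls thus went upward in cortex and downward in amygdala, and the median difference of the 44 members was 0.20 in cortex (31 above 0) and -0.19 in amygdala (33 below 0), where the median of all tested probe sets was -0.02 and 0.01. The 3′ to 5′ difference of Gapdh moved with the amygdala values: its median was 0.20 in amygdala (-0.15 to 0.44) and 0.01 to 0.09 in the other regions. The median log2 signal of the tested members was 8.82 in amygdala and 9.10 to 9.27 in the other regions, and the part of RNA quality in the amygdala calls was not tested.

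Hippocampus had 15 calls, 5 higher and 10 lower (23.3% of all tested probe sets, 10.8% higher and 12.5% lower), and Kcnt1, Kcnf1 and Kcnj4 fell most there. Accumbens had 14, of which 6 were higher and 8 lower (20.9% of all, 12.3% and 8.58%). Striatum had 8, of which 7 were higher and 1 lower (13.9% of all, 6.27% and 7.65%). The median differences of the members were -0.09 in hippocampus, 0.08 in accumbens and 0.14 in striatum, and those of all tested probe sets were 0.01, 0.02 and -0.01. The striatal count fell to 4 without iP animal 4 or iP animal 6, and to 5 without iNP animal 7, 9, 10 or 11. Kcnab1, Kcnt1 and 1 Kcna4 probe set kept their striatal call in these fits. The smaller striatal rises of Kcnf1, Kcna6, Kcnh1 and the other Kcna4 probe set did not all stay called. Without the 2 arrays that stood apart, 33 members differed between regions (52.7% of all tested probe sets). Cortex then had 23 calls (20 higher and 3 lower, 22.2% of all), striatum 10 (16.5%), hippocampus 17 (25.5%), amygdala 21 (2 higher and 19 lower, 33.4%) and accumbens 14 (23.6%). A lower signal in bulk tissue can mean fewer cells that make the transcript or less of it in each cell, and these cannot be told apart here.

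**Figure D2:**
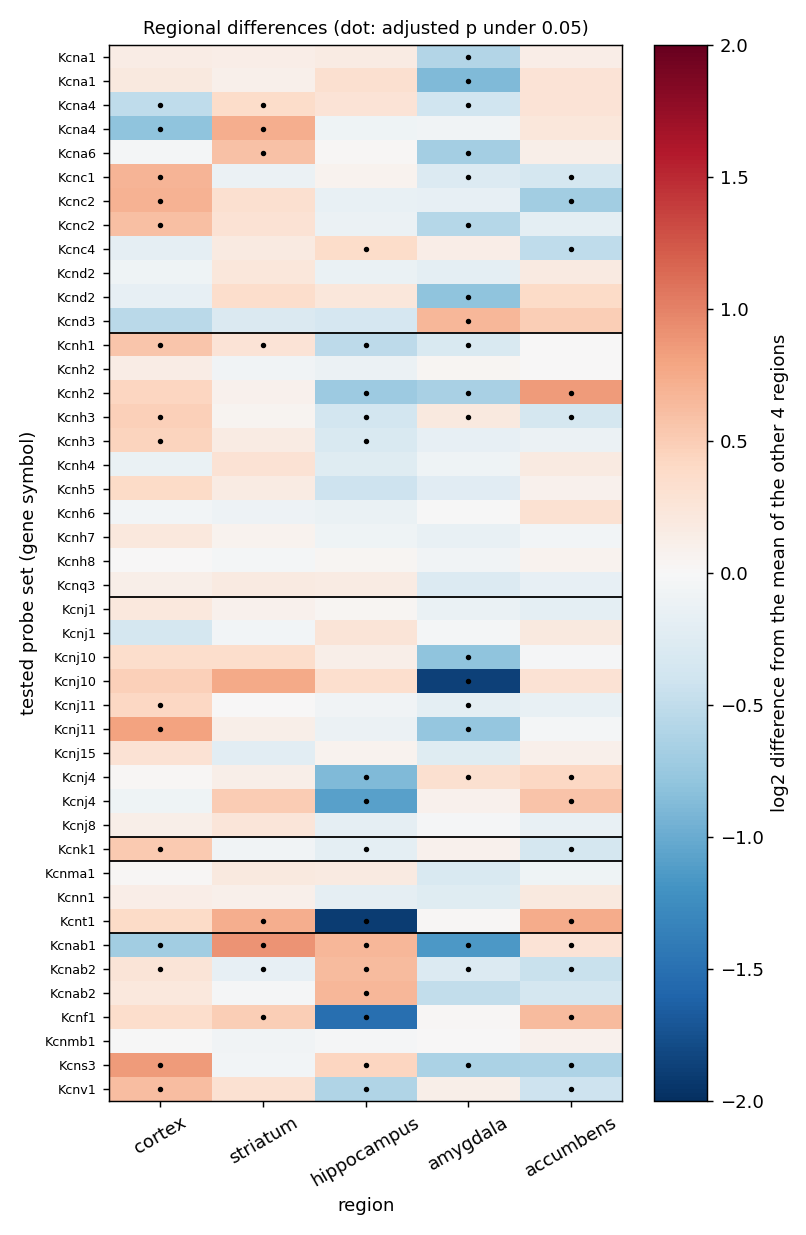
Log2 difference of each region from the mean of the other 4 for the 44 tested probe sets, grouped by role, on a scale from -2 to 2. Dots mark an adjusted p under 0.05; the darkest blue cells are Kcnt1 (-1.90) and Kcnf1 (-1.51) in hippocampus and Kcnj10 (-1.87) in amygdala.

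The modifying subunits had calls between regions in 6 of 7 tested probe sets, where 45.4% of all tested probe sets were called. The smallest p among them was that of Kcnab1, a cytoplasmic beta subunit that speeds the inactivation of Kcna channels. In the order lowest, median and highest array, its signal was 852, 1370 and 1631 in striatum and 722, 1123 and 1757 in hippocampus. It was 788, 930 and 1054 in accumbens and 374, 560 and 732 in cortex. In amygdala it was 317, 424 and 604. Every striatal array lay above every amygdala and every cortical array. The log2 difference from the other regions was 0.89 ± 0.08 (SE) in striatum (adjusted p = 1.12e-11), 0.66 ± 0.08 in hippocampus and 0.28 ± 0.08 in accumbens. It was -0.69 ± 0.09 in cortex and -1.15 ± 0.08 in amygdala (adjusted p = 2.40e-15, limma).

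Kcnab2 is a further beta subunit. On 1 probe set its signal was 6870, 7543 and 8840 in hippocampus and 3204, 4337 and 4705 in accumbens, so that these regions did not overlap. Cortex lay between at a median of 6720, above amygdala at 4467 and striatum at 4944. The difference was 0.63 ± 0.05 in hippocampus, 0.26 ± 0.06 in cortex, -0.16 ± 0.05 in striatum, -0.27 ± 0.05 in amygdala and -0.45 ± 0.05 in accumbens. Its second probe set was also higher in hippocampus (0.67 ± 0.20; adjusted p = 0.0122, limma). The striatal call of the first sat near the threshold (adjusted p = 0.0397), and left it without the filter (0.0525) or without any 1 of 7 animals, iP 1, 2, 4 and 6 and iNP 7, 9 and 12 (0.0627 to 0.115, limma).

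Kcnf1 is a silent subunit, which makes no current alone but alters the channels it joins. Its signal in hippocampus was 75.2, 160 and 350. It was 219, 507 and 784 in accumbens, 258, 475 and 651 in striatum and 81.1, 474 and 836 in cortex, where the 81.1 is iP animal 5. In amygdala it was 196, 411 and 508. Hippocampus was lower than the other regions by -1.51 ± 0.16 (adjusted p = 2.01e-10), and accumbens and striatum were higher by 0.64 ± 0.16 and 0.49 ± 0.16 (limma).

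Kcnv1 and Kcns3, silent subunits as well, were highest in cortex. Kcnv1 had 929, 1199 and 1325 in cortex and 439, 587 and 752 in hippocampus, with no overlap (differences 0.61 ± 0.12 and -0.61 ± 0.11). Kcnv1 was also lower in accumbens (-0.42 ± 0.11), where it had 187, 715 and 870. The 187 lies below every array of the other regions. Kcns3 had 396, 566 and 915 in cortex and 241, 469 and 667 in hippocampus. It had 243, 350 and 434 in striatum, 139, 263 and 437 in accumbens and 100, 219 and 536 in amygdala, the 536 being iP animal 1. Its difference was 0.86 ± 0.15 in cortex, 0.43 ± 0.14 in hippocampus, -0.61 ± 0.14 in accumbens and -0.63 ± 0.14 in amygdala. The Kcnmb1 probe set that was tested, of a beta subunit of the large-conductance channel, did not pass (adjusted p = 0.927, limma F test).

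Kcns1, a silent subunit of the same family as Kcns3, had the widest regional range of the 82 probe sets (4.03 in log2 between cortex and accumbens) and was singled out after its values were seen. It was not among the tested probe sets, and its median lay under 64 in hippocampus, amygdala and accumbens. Its signal was 566, 742 and 1125 in cortex and 72.4, 151 and 431 in striatum. It was 31.5, 58.6 and 120 in hippocampus, 34.1, 45.9 and 71.8 in accumbens and 26.2, 43.4 and 860 in amygdala. Every cortical array lay above every striatal, hippocampal and accumbens array. The 860 is amygdala of iP animal 1, the array that was most like cortex, and the other 11 amygdala arrays reached at most 106. Cortex of iP animal 5, the other array that stood apart, was at 817, within the range of the cortical arrays. In the fit without a filter the cortical difference was 3.41 ± 0.25 (adjusted p = 1.28e-14), and without the 2 arrays that stood apart it was 3.52 ± 0.20; hippocampus was at -1.11 ± 0.24 and -1.04 ± 0.18, and accumbens at -1.55 ± 0.24 and -1.47 ± 0.18. Amygdala was at -1.20 ± 0.24 with and -1.54 ± 0.19 without them.

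The 250 bases before the annotated start of 4 of these genes are shown because each had a wide regional range in signal (RefSeq, GRCr8, 5′ to 3′ on the strand of the gene), a choice made after their values were seen. Kcns1 lies at chr3:173262347-173262596 on the minus strand, Kcnt1 at chr3:29081089-29081338 on the plus strand, Kcnf1 at chr6:45693707-45693956 on the minus strand and Kcnab1 at chr2:151614301-151614550 on the plus strand. Capitals mark the GC box GGGCGG or its reverse complement CCGCCC, searched on both strands.
Kcns1: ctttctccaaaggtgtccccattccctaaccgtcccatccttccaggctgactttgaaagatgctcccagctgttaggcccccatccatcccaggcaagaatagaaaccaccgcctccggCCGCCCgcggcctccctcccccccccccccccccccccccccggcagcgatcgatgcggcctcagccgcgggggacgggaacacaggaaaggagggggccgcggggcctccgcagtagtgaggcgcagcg
Kcnt1: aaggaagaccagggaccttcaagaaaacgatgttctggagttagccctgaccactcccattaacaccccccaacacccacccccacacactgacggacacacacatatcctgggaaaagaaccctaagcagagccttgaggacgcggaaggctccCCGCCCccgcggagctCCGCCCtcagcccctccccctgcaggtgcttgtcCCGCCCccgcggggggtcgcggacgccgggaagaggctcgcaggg
Kcnf1: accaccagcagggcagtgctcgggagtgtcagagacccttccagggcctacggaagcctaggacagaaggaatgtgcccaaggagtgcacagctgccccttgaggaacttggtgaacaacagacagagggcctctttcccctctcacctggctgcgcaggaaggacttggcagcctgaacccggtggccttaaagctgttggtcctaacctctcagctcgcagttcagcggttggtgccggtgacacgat
Kcnab1: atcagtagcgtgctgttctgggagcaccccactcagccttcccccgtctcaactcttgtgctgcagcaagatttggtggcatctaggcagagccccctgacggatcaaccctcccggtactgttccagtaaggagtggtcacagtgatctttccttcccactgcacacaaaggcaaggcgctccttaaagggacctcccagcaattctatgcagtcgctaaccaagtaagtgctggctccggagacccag
The Kcnt1 stretch held 3 GC boxes and 16 CG dinucleotides and the Kcns1 stretch 1 and 18. The Kcnf1 stretch held none and 8, and the Kcnab1 stretch none and 7. Kcnt1 and Kcnf1, which share their low signal in hippocampus, thus differ in this window. Promoters of 300 bases were found for 40 of the 54 genes, and 20 of them (50%) held a GC box, against 34.9% of 27457 rat promoters. The TATA box TATAAA was in 2 (5%, against 14.3%), the E-box CACGTG in 2 (5%, against 6.65%) and the cyclic AMP response element TGACGTCA in 0 (against 1.91%). The median number of CG dinucleotides was 18.5 in the member promoters and 7 in all. These are matches of letters and not binding sites.

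Among the calcium- and sodium-activated channels 3 probe sets were tested and 1 was called between regions (45.4% of all tested probe sets were). The called probe set was that of Kcnt1, a pore opened by internal sodium. Its signal in hippocampus was 36.1, 85.1 and 389. It was 281, 402 and 562 in striatum, 325, 422 and 530 in accumbens and 181, 300 and 489 in amygdala. In cortex it was 78.5, 385 and 522, the 78.5 being iP animal 5. In hippocampus the 389 is iNP animal 8, and the other arrays there reached at most 195. The difference was -1.90 ± 0.18 in hippocampus (adjusted p = 4.03e-12), 0.73 ± 0.18 in striatum and 0.74 ± 0.18 in accumbens (limma). Kcnma1 and Kcnn1, the large-conductance channel and a small-conductance one, did not pass (adjusted p = 0.180 and 0.171, F test).

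**Figure D3:**
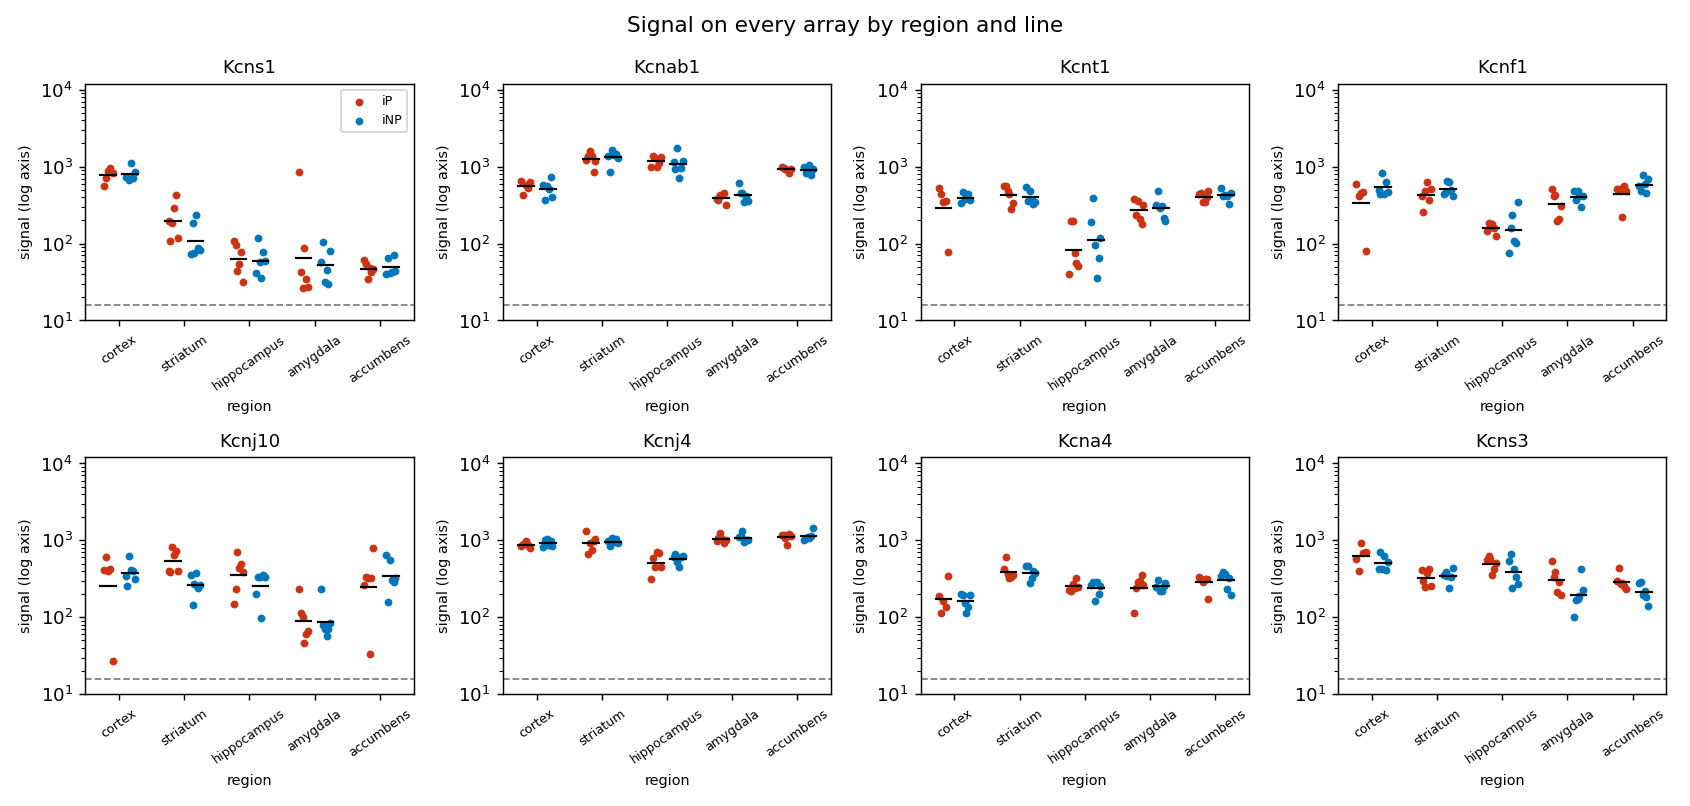
Signal on every array (log axis) for Kcns1, Kcnab1, Kcnt1, Kcnf1, Kcnj10, Kcnj4, Kcna4 and Kcns3 by region, with iP arrays in red on the left and iNP arrays in blue on the right of each region. Short bars are means of the log2 signals and the dashed line is the floor of 16; hippocampus is low for Kcnt1 (median 85.1) and Kcnf1 (160), and 1 amygdala array of Kcns1 lies at 860 beside cortex.

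Of 12 tested probe sets of the pore-forming Kcna to Kcnd families, 10 differed between regions in the F test (45.4% of all tested probe sets did). In amygdala 7 were lower and 1 higher (12.8% and 13.3% of all), with a median of -0.34 for the 12, against 0.01 for all tested probe sets. Kcna4, which makes a fast-inactivating current, was lowest in cortex and highest in striatum. Its signal was 114, 162 and 340 in cortex, where the 340 is iP animal 5, and 276, 368 and 615 in striatum. The differences were -0.80 ± 0.12 in cortex and 0.72 ± 0.11 in striatum (adjusted p = 8.22e-07 and 4.30e-06, limma). Its second probe set moved the same way (-0.50 ± 0.11 and 0.37 ± 0.10) and was also lower in amygdala (-0.41 ± 0.10). Kcna1, a low-threshold delayed rectifier, was lower in amygdala on both its probe sets, by -0.88 ± 0.22 and -0.58 ± 0.17, although the second missed the threshold in the F test (adjusted p = 0.0570, limma). The first had signals of 90.7, 352 and 513 in amygdala, 46.0, 637 and 917 in cortex, 193, 540 and 743 in striatum, 263, 651 and 777 in hippocampus and 156, 623 and 900 in accumbens.

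Kcnc1 and Kcnc2, the fast channels of fast-spiking neurons, were higher in cortex. Kcnc2 had 1126, 1509 and 2396 in cortex on 1 probe set. It had 164, 911 and 1650 in accumbens, 743, 985 and 1243 in hippocampus, 676, 991 and 1256 in amygdala and 927, 1240 and 1694 in striatum. The difference was 0.70 ± 0.14 in cortex and -0.70 ± 0.14 in accumbens. A further Kcnc2 probe set was higher in cortex by 0.61 ± 0.21 and lower in amygdala by -0.57 ± 0.20. Kcnc1 differed by 0.67 ± 0.09 in cortex, -0.35 ± 0.09 in accumbens and -0.27 ± 0.09 in amygdala. The list for fast-spiking interneurons held 3 other genes on the array, of which Gad1 and Gad2 are not particular to these cells. Pvalb, the calcium-binding protein of fast-spiking interneurons, was higher in cortex by 1.36 and lower in accumbens by -0.66. Gad1 was lower in cortex (-0.34), and Gad2 was at -0.59 there without a call. In accumbens Gad1 and Gad2 went the other way from Pvalb, higher by 0.83 and 1.23, and in amygdala all 3 were lower (median -0.84). The summed signal of the 3 genes, which is not one of fast-spiking cells alone, was 7634 to 11392 in cortex. It was 8867 to 13812 in accumbens, against 5478 to 9363 in amygdala. Their part in the Kcnc values was not tested.

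Kcnc4, a relative that inactivates quickly, had 278, 510 and 785 in accumbens and 619, 860 and 1158 in hippocampus, and differed by -0.50 ± 0.11 and 0.37 ± 0.11. Kcnd2, which carries the fast current of dendrites, was lower in amygdala on 1 of its 2 probe sets (-0.80 ± 0.20). Kcnd3, its relative, had 338, 1058 and 1977 in amygdala and 390, 628 and 1146 in hippocampus on the tested probe set. Amygdala was higher by 0.66 ± 0.24, a call that left the threshold without the filter (adjusted p = 0.0568) or without any 1 of 8 animals, iP 2, 3 and 6 and iNP 7 to 11 (0.0580 to 0.0983, limma). On the dimmer Kcnd3 probe sets, amygdala was the lowest region on 1 and in the middle on the other. The Kcnd3 probe sets correlated by -0.13 to 0.25 across arrays. Kcna6 was lower in amygdala (-0.67 ± 0.21) and higher in striatum (0.58 ± 0.21). The striatal rises of Kcna6, Kcnf1, Kcnh1 and the second Kcna4 probe set did not all stay called without any 1 of several animals.

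Of 11 tested probe sets of the Kcnh and Kcnq families 5 differed between regions, a share near the 45.4% of all tested probe sets. In hippocampus 4 were lower and none higher (12.5% and 10.8% of all), with a median of -0.24 against 0.01 for all. Kcnh1, of the ether-a-go-go type, had 1415, 1752 and 1832 in cortex and 790, 904 and 1289 in hippocampus, with no overlap. It differed by 0.55 ± 0.10 in cortex, 0.27 ± 0.09 in striatum, -0.53 ± 0.09 in hippocampus and -0.30 ± 0.09 in amygdala. Kcnh3, a channel mostly of the forebrain, had 2181, 3855 and 5672 in cortex, 2065, 2738 and 3307 in striatum and 2404, 2778 and 3823 in amygdala. It had 1649, 2219 and 3157 in hippocampus and 1511, 2216 and 2990 in accumbens. The differences were 0.48 ± 0.08 in cortex, -0.37 ± 0.07 in hippocampus and -0.35 ± 0.07 in accumbens, and its second probe set was also higher in cortex (0.44 ± 0.11) and lower in hippocampus (-0.31 ± 0.11). The rise of 0.19 ± 0.07 in amygdala sat at the threshold (adjusted p = 0.0484) and left it without the 2 arrays that stood apart (0.0707), without the animal as a block (0.0871), without the filter (0.0658), after quantile normalization (0.0825), without the variance trend (0.0532) and without any 1 animal other than iP 5 or iNP 8 (0.0536 to 0.116, limma). Kcnh2, the ether-a-go-go related channel, had 399, 723 and 763 in accumbens and 181, 260 and 426 in hippocampus on 1 probe set. It differed by 0.85 ± 0.15 in accumbens, -0.73 ± 0.15 in hippocampus and -0.65 ± 0.15 in amygdala. Its other probe set did not pass (adjusted p = 0.398, F test), with region medians from 1018 to 1189.

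Among the inward rectifiers 6 of 10 tested probe sets were called between regions, where 45.4% of all tested probe sets were. In amygdala 4 were lower and 1 higher (12.8% and 13.3% of all). Kcnj10 is the main rectifier of glial cells, where it clears potassium from around neurons. Its signal in amygdala was 47.0, 75.4 and 234. It was 27.1, 402 and 633 in cortex, 145, 386 and 823 in striatum, 97.3, 333 and 711 in hippocampus and 32.9, 323 and 785 in accumbens. The 27.1 and the 234 are the 2 arrays that stood apart (cortex of iP animal 5 and amygdala of iP animal 1), and the 32.9 is accumbens of iP animal 4, an array most like amygdala. The amygdala difference was -1.87 ± 0.30 (adjusted p = 3.22e-06), -2.12 ± 0.25 without the 2 arrays, and -0.81 ± 0.23 on the second Kcnj10 probe set (limma).

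In amygdala, markers of myelinating glia were low. All 5 tested oligodendrocyte markers were lower in amygdala (median -0.91), and their summed signal was 31301 to 87272 there against 66232 to 101830 in striatum, 78315 to 125620 in hippocampus, 66000 to 94440 in accumbens and 29088 to 81245 in cortex. In hippocampus all 5 markers were higher (median 0.53), in striatum 4 and in accumbens 3. In cortex, where the median of Kcnj10 was highest, none was called (median -0.18). Of 6 tested astrocyte markers 1 was higher in amygdala, 1 lower and 4 not called (median 0.04). The summed signal of the astrocyte markers was 54105 to 78003 in amygdala and 45453 to 82337 in the other regions. None of these markers had a region median under 32. Their part in the Kcnj10 difference was not tested.

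Kcnj4, a strong rectifier of forebrain neurons, was lowest in hippocampus. Its brighter probe set had 311, 594 and 701 in hippocampus and 788, 882 and 1051 in cortex, 668, 971 and 1313 in striatum, 928, 1035 and 1321 in amygdala and 871, 1118 and 1435 in accumbens. Hippocampus overlapped only striatum, at a single striatal array of iP animal 2. The differences were -0.89 ± 0.08 in hippocampus (adjusted p = 2.29e-13), 0.33 ± 0.08 in amygdala and 0.41 ± 0.08 in accumbens, and the second probe set gave -1.09 ± 0.21 in hippocampus and 0.58 ± 0.21 in accumbens (limma). Kcnj11, the pore of the ATP-sensitive channel, had 509, 888 and 1134 in cortex and 194, 330 and 791 in amygdala. It differed by 0.81 ± 0.14 and -0.78 ± 0.13, and its second probe set, on the same sequence record, by 0.41 ± 0.07 and -0.20 ± 0.07. Kcnk1, the only two-pore channel tested, had 2051, 2500 and 3325 in cortex and 1353, 1556 and 1700 in accumbens, with no overlap. It differed by 0.52 ± 0.06, -0.35 ± 0.06 and, in hippocampus, -0.19 ± 0.06.

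Without the filter, 10 of the 38 dim members differed between regions (13.8% of all 3496 dim probe sets did) and none between the lines over all regions (1% of dim probe sets). In single regions none differed between the lines either, where 0.0858% to 0.257% of dim probe sets did. Among the 10 were Kcnn3 (0.68 ± 0.21 in amygdala and -0.67 ± 0.21 in hippocampus) and a Kcnk3 probe set (0.34 ± 0.10 in cortex), both near the floor in every region with the lines pooled, so these differences are poorly measured. Apart from Kcns1, the values that stood out, after they were seen, were those of Kcnj16, a rectifier that pairs with Kcnj10. On 1 probe set it had 54.6, 256 and 339 in amygdala and 118, 240 and 395 in accumbens. It had 27.8, 68.3 and 135 in cortex, 33.3, 52.2 and 161 in striatum and 19.4, 84.4 and 168 in hippocampus. Both Kcnj16 probe sets were higher in amygdala (1.31 ± 0.24 and 0.58 ± 0.19) and in accumbens (1.36 ± 0.24 and 0.84 ± 0.19). Kcnj16 was thus high in amygdala, where Kcnj10 was low. Kcnj9, a channel opened by G-protein subunits, was higher in cortex by 1.04 ± 0.22, and Kcnab3 was higher in accumbens by 1.12 ± 0.25.

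Of 33 genes listed as partners of these channels (anchoring, auxiliary and signalling proteins), 19 were on the array and 18 tested. Between regions 13 differed (45.4% of all tested probe sets did), and none differed between the lines over all regions (2.65% of all). In striatum 7 were higher and none lower (6.27% and 7.65% of all). In amygdala 2 were higher and 6 lower (13.3% and 12.8%), in cortex 5 and 4 (7.86% and 9.19%), in hippocampus 4 and 2 (10.8% and 12.5%) and in accumbens 4 and 3 (12.3% and 8.58%). Dpp6, the auxiliary subunit of Kcnd channels, was lower in cortex (-0.59 ± 0.13) and amygdala (-0.38 ± 0.12) and higher in hippocampus (0.49 ± 0.12) and accumbens (0.40 ± 0.12). Cntn2, an adhesion protein that holds Kcna channels beside the nodes of myelinated axons, was lower in amygdala (-0.47 ± 0.05). Dlg1, a scaffold that binds Kcna and Kcnj tails, was lower in hippocampus (-0.82 ± 0.08) and higher in striatum (0.43 ± 0.08), and Actn2, an actin crosslinker, was higher in striatum by 1.27 ± 0.18. Abcc8, the sulfonylurea receptor that surrounds the Kcnj11 pore, was higher in cortex (0.26 ± 0.09).

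Between the lines no potassium channel probe set passed. Over all regions, with 1 value per animal (6 against 6), 0 of 44 were called by limma, where 2.65% of all tested probe sets were; 6 of 44 (13.6%) had an unadjusted p under 0.05, against 11.9% of all. Within single regions 0 of 44 were called. Of all tested probe sets, cortex had 0.229% called, striatum 0.839%, hippocampus 0.667%, amygdala 0.725% and accumbens 0.572%. In the same order, the numbers at an unadjusted p under 0.05 were 0, 4, 3, 1 and 3 of 44, against 5.26%, 8.01%, 7%, 8.75% and 7.06% of all. No member, and no probe set at all, had a line difference that varied between regions at the adjusted threshold, and 2 members (4.55%, against 4.61% of all) did at an unadjusted p under 0.05. The median line difference of the members was -0.07 (30 of 44 below 0), where that of all tested probe sets was -0.01, and it was -0.04 without the 2 arrays that stood apart. In amygdala it was -0.13, and -0.17 without iP animal 1. In cortex it was -0.21 and became 0.01 without iP animal 5, with 22 of 44 below 0.

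The 3 members with the smallest p over all regions were Kcns3, Kcnd2 and Kcnh3. The log2 signal of Kcns3 per animal was 8.28, 8.62 and 8.83 in iP (lowest, median and highest) and 8.01, 8.22 and 8.59 in iNP. The lines overlapped, and the difference was 0.33 ± 0.11 (adjusted p = 0.172), higher in iP in 4 of 5 regions. Kcnd2 had 9.12, 9.51 and 9.69 in iP and 9.54, 9.82 and 10.00 in iNP, a difference of -0.28 ± 0.10 (adjusted p = 0.226, limma), lower in iP in all 5 regions. Its second probe set gave -0.38 ± 0.17. Kcnh3 had 11.06, 11.28 and 11.37 in iP and 11.19, 11.58 and 11.72 in iNP, a difference of -0.24 ± 0.09 (adjusted p = 0.248), also lower in all 5 regions, and its second probe set gave -0.23 ± 0.09. None of the 44 members separated the lines without overlap over all regions (2.86% of all tested probe sets did), and all differences lay between -0.38 and 0.33.

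**Figure D4:**
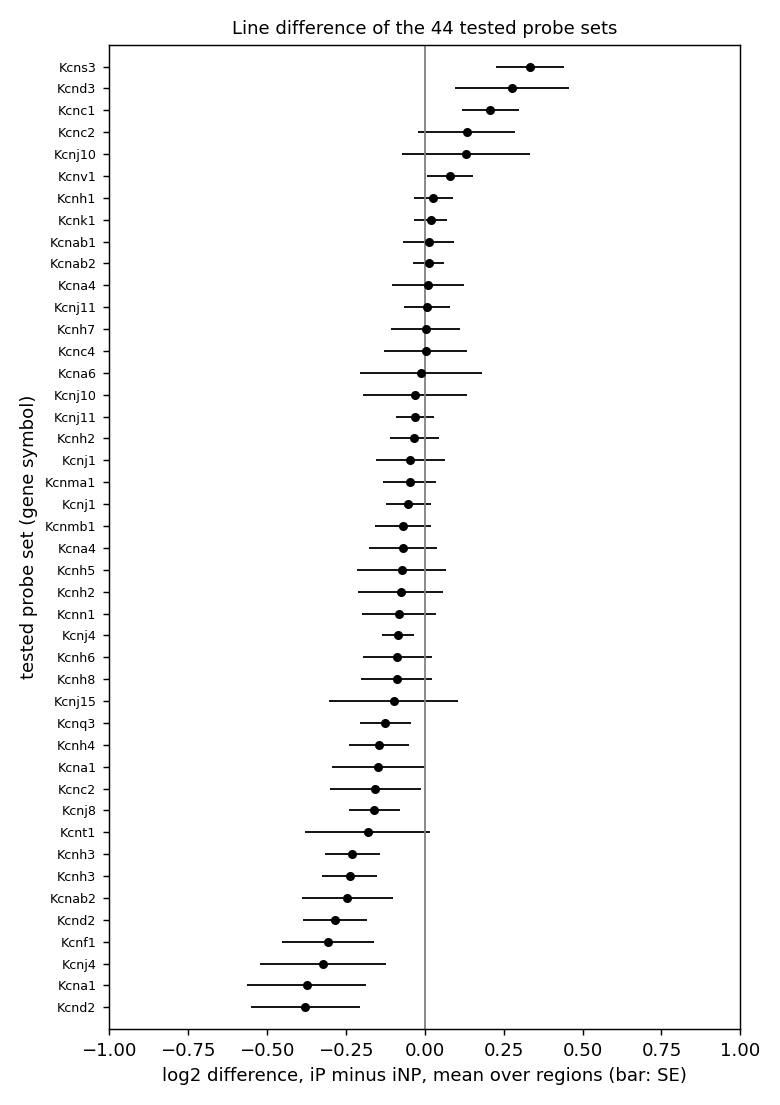
Log2 difference between the lines (iP minus iNP, mean over regions) for the 44 tested probe sets in order of size, with bars of 1 standard error. Kcns3 is at the top (0.33) and a Kcnd2 probe set at the bottom (-0.38); none passed the adjusted threshold.

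In single regions the lines did not overlap for 1 member in striatum, 1 in hippocampus and 2 in accumbens, and for none in cortex or amygdala (of all tested probe sets 1.43%, 1.28%, 1.07%, 1.22% and 1.14%). These were named after their values were seen. In striatum Kcnj10 had 392, 519 and 823 in iP and 145, 268 and 379 in iNP, a difference of 1.02 ± 0.25 (adjusted p = 0.101, limma); its second probe set had medians of 478 and 465. In hippocampus Kcnh3 had 1649, 1862 and 2205 in iP and 2234, 2373 and 3157 in iNP, a difference of -0.43 ± 0.10 (adjusted p = 0.104), which passed with array weights (-0.44, adjusted p = 0.0385). In accumbens Kcnh4 had 248, 282 and 301 in iP and 303, 344 and 442 in iNP (-0.37 ± 0.14), and Kcnh6 had 174, 245 and 263 in iP and 271, 295 and 398 in iNP (-0.40 ± 0.16), with adjusted p = 0.576 and 0.618. The tested Kcnd3 probe set was called over all regions only without the 2 arrays that stood apart (0.47 ± 0.11, adjusted p = 0.0348, against 0.28 ± 0.18, adjusted p = 0.593, with all arrays). Of the dimmer Kcnd3 probe sets, with all arrays, 1 had a mean log2 signal of 7.52 in iP and 7.29 in iNP. The other went the opposite way, with 5.83 in iP and 6.15 in iNP.

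Probe sets of a gene often disagreed, which limits what can be said of 22 genes that have several. The brightest median was over 10 times the dimmest for Kcnd3 (14.3 times), Kcnc2 (12.5), Kcnq3 (12.5), Kcnma1 (12.4) and Kcnj1 (11.0), and probe sets of different sequence are not on 1 scale. Across the 59 arrays, which share region and scaling, the correlation was 0.84 for the Kcna1 pair and 0.81 for the Kcnj10 pair, and 0.05 for the Kcnh2 pair and -0.19 for the Kcnmb1 pair. Of the 4 Kcnma1 probe sets 1 was bright enough to be tested. Names that end in s_at mark probe sets that may also match related genes, which holds for the called probe sets of Kcns3, Kcnc1, Kcnc2, Kcnd2, Kcnd3 and Kcna6 and for the second ones of Kcna1, Kcna4, Kcnh3, Kcnj4 and Kcnj10, so for these the gene behind the signal is less certain.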

How the data were processed

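The authors deposited 1 linear intensity per probe set and array; the program that made them, its version and any genome build are not given in the sources used here. Per the labels, total RNA of each rat and region was labelled and hybridised separately. All 59 value columns were mapped to samples by title, and the line was taken from the title and genotype label, not from the source name, which gives iNP on every array. The trimmed mean (2% at each end) was 1000 on every array, and the signals were used without rescaling. Values below 16 were raised to 16 before taking log2. Of 8799 probe sets, 59 controls and the 40% with the lowest mean were left out, and 5244 were tested. Symbols came from the platform annotation; all 54 member genes were matched by gene ID to the RefSeq gene table.

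Tests used limma 3.58.1 (R 4.3.3; eBayes with a trend on mean signal) and two-sided p-values adjusted by Benjamini-Hochberg over all tested probe sets, called under 0.05. For the line difference over all regions, region levels were subtracted first and 1 mean per animal was then taken; iP animal 6 has 4 regions in it. Region contrasts used the animal, known from the titles, as a fixed block; residuals correlated by 0.0574 on average within animals and by -0.00369 between animals, and 5 of the 12 animals had a mean below 0. Single regions were fitted alone. Line by region used a moderated F test. The number of animals limits the precision. In the line comparisons, p-values measure the spread between these animals. In the region contrasts and the line by region test, the block removes differences between animals, so p-values there measure the spread left within animals. The scripts were tested on simulated data.

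The members, the gene and marker lists and the tests were chosen with earlier results of these data known. Named are the 3 members with the smallest p between the lines and the 3 largest rises and falls among the calls of each region. The 5 with the highest mean signal, members near the floor and probe sets of a gene that disagree are named too. Further members, among them Kcnv1, Kcnc1, Kcnj9 and Kcnab3, are named outside these rules and with their values known. For some of these the text says so where they appear. Kcnc1 was left out of the gene list for fast-spiking interneurons, being a member. Alternatives changed the floor, the filter, the normalization, array weights, the variance trend, the block and the arrays used.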

Additional observations from a re-analysis of the deposited data

Results flagged for a closer look

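In 16 groups of 5 or 6 values, the highest or lowest value was tested for a gap to the others, and 7 groups had one; chance alone gives about 1 group in 20. The median log2 signal of the tested potassium channel probe sets stood apart on 5 arrays. These were cortex of iP animal 5 (8.02), accumbens of iP animal 4 (8.39), hippocampus of iNP animal 10 (8.60), striatum of iP animal 2 (8.70) and hippocampus of iP animal 2 (8.74). The Gapdh 3′ to 5′ difference (log2) was the highest of its own group on 3 of them: 6.14 on the cortex array, 0.36 on the accumbens array and 0.24 on the array of iNP animal 10. On the striatal and hippocampal arrays of iP animal 2 it was 0.01 and 0.10. Its part in these medians was not tested. Over all regions, the Kcnd2 mean of iP animal 5 (9.12) and the Kcnh3 mean of iP animal 1 (11.06) stood apart from the other 5 iP animals; both are low values in the line with the lower mean.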

How the results depend on the processing

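Followed over the alternatives were the 3 members with the smallest p between the lines. The 3 largest rises and falls among the calls of each region, or fewer where there were fewer, were followed as well. Of these 664 values, 630 kept their direction and their side of the threshold, 34 kept the direction and left the threshold, and none reversed. The 34 belong to Kcnab2 in striatum and to Kcnd3 and Kcnh3 in amygdala. For the other calls given in the text, single values were not followed. Of 287 counts of called members, 268 stayed within 1.5 times the main count. With the dimmest 60% left out, fewer probe sets were tested, and the counts were 3 in striatum, 12 in amygdala, 9 in accumbens and 16 for any region. With array weights they were 25 in cortex, 13 in striatum and 1 between the lines in hippocampus. Without the 2 arrays that stood apart they were 23 in cortex (22.2% of all tested probe sets, against 17% in the main fit) and 1 between the lines over all regions (3.18%, against 2.65%). With no filter as well, an alternative chosen after seeing the data, more probe sets were tested. The counts were then 30 in cortex, 29 in amygdala and 46 for any region. For the other alternatives the share of all probe sets called is not given here, so their counts do not show a shift particular to the members. The cause of the shifts with array weights and without the 2 arrays that stood apart was not tested. Leaving out 1 animal at a time gave 14 to 21 in cortex, 4 to 9 in striatum, 14 to 16 in hippocampus, 15 to 21 in amygdala, 13 to 16 in accumbens and 25 to 32 for any region, and 0 for every line comparison. Without the animal as a replicate block the counts were 15, 7, 15, 18, 13 and 29 in the same order. Among the members followed, the block changed the call of Kcnh3 in amygdala (adjusted p = 0.0871 without it, limma). With a median at or under 16 in place of 32, 1 member was near the floor in all regions. The filter on low mean signal left 38 of 82 probe sets out of the main comparison.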
